A study of Mus musculus with 12 samples.

Results

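The comparison described here asks whether loss of Foxc1 changed gene expression differently in 2 stages of the hair cycle of mouse hair follicle stem cells. It uses the 12 libraries of the study, all 12 of 12, and the 37931 gene names found in both deposited count tables, of 38803 names in the anagen table. Every mouse carried K14-H2BGFP and 2 floxed Foxc1 alleles (Foxc1 fl/fl). Conditional knockout (KO) mice also carried K14Cre, and mice without Cre served as wild-type controls (WT). The K14 promoter is active in basal keratinocytes of the whole epidermis and hair follicle, so the deletion was not restricted to stem cells. Back skin was dissociated and cells were sorted as H2BGFP-positive, Sca-1-negative, CD34-positive and CD49f-positive. The anagen group held 2 KO libraries, titled postnatal day (P) 29 and P31 and both female. It also held 3 WT libraries, titled P29 (female), P30 (male) and P31 (male). Early telogen held 4 KO libraries (3 female and 1 male), of which 3 were titled P47 and replicate 5 was titled P43, and 3 WT libraries titled P47 (2 female and 1 male). Of these, anagen WT replicate 3 has an age label of day 43 and early telogen KO replicate 5 one of day 47, so title and age disagree in 2 libraries. Nothing in the labels says that each library came from a separate animal, so the tests measure the spread between libraries.

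Hair follicles cycle through growth (anagen), regression and rest (telogen). The stem cells sit in the bulge, next to an inner layer of differentiated keratinocytes, and are held quiescent for most of the cycle by signals such as BMP and FGF proteins, while WNT signals start new growth. Foxc1 encodes a forkhead transcription factor that is expressed in these stem cells. The KO effect is given below as the log2 ratio of KO to WT within a stage. The difference between stages is the early telogen effect minus the anagen effect, so a positive value means that KO stood higher relative to WT in early telogen than in anagen. Errors of log2 values are standard errors of the fit, and a gene was called when its Benjamini-Hochberg adjusted p from edgeR's quasi-likelihood test was under 0.05 over all 13193 genes tested. Levels are CPM, reads of a gene relative to the reads of its library counted in the 13193 genes tested, scaled by TMM factors.

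Total counts over the shared genes were 28115310 to 52692280 per library in anagen and 2658749 to 11807099 in early telogen. All anagen libraries come from one table and all early telogen libraries from another, so stage, table and depth cannot be told apart, except that each KO effect is taken within its own table. Foxc1, the deleted gene, was at 0.199 and 0.264 CPM in the 2 anagen KO libraries and at 35.0, 121 and 48.0 CPM in anagen WT. It was at 2.17, 2.63, 0.985 and 1.14 CPM in early telogen KO (replicates 1, 2, 3 and 5) and at 45.8, 70.2 and 67.2 CPM in early telogen WT. Foxc1 thus matched the genotype label in all 12 libraries. The difference of its effect between stages was 3.16 ± 0.77 and was not called (edgeR adjusted p = 0.220). The labelled cell type was checked against Krt14, a keratin of basal cells, which was at 6406 to 10975 CPM over the 12 libraries, and against the bulge markers described below. In bulk libraries, fewer cells of a type and less RNA per cell cannot be told apart.

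Loss of Foxc1 had a different effect in the 2 stages for 19 genes. Of these 17 had a positive difference (0.129% of genes tested) and 2 a negative one (0.0152%), together 0.144%. All of the 17 had a negative effect in anagen, 16 of them by a called change. In early telogen their effects were of either sign, with 9 positive (2 called) and 8 negative (none called). Since the 17 were chosen by the difference of these effects, the signs are a description. Their median effect was -2.37 in anagen and 0.38 in early telogen. Among the 17 were Wif1, Tgm5, Krt24, Chat, Col6a1 and Lgr6, and the 2 with a negative difference were Enc1 and Ctsl. The unadjusted p was under 0.05 for 841 genes (6.37%), of which 599 were positive and 242 negative. Over all genes tested the median difference was 0.041, and 53.7% of genes were positive.

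These calls rest on few libraries. Without anagen KO replicate 1 only Enc1 was called (1 gene, with 766 genes at an unadjusted p under 0.05), and without anagen KO replicate 2 none was called (734 genes). Every one of the 19 kept its sign when each of the 12 libraries was left out in turn. The 19 were chosen for large differences in these same libraries, so kept signs, here and below, describe them and are no test. Wif1 and Tgm5 were still called in 10 of the 12 cases, and lost their calls only without either anagen KO library (highest edgeR adjusted p 0.0891). Early telogen KO replicate 2 and WT replicate 3 lay at an end of their groups in several marker sums and were picked after seeing the data. Without both, no gene was called by edgeR, with 810 genes at an unadjusted p under 0.05 and all 19 signs kept. Titles give anagen KO and WT libraries shared days, except WT replicate 2 (P30), which adds nothing to the KO effect in a block by day. With those days as a replicate block, an alternative added after seeing the data, 18 positive and 0 negative genes were called, and 14 of the 17 remained. Ctnnd2, Pros1, Sms, Enc1 and Ctsl lost their calls (edgeR adjusted p = 0.0795, 0.0821, 0.103, 0.0727 and 0.0727). With the numbers of the early telogen titles as a block, alone or with the anagen days, no gene was called (937 and 1072 genes at an unadjusted p under 0.05). Only numbers 1 and 3 are shared by a KO and a WT library. KO replicates 2 and 5 and WT replicate 4 stand alone in their blocks and add nothing to the KO effect. Pairing and the loss of these libraries cannot be told apart in this count. With other tools the counts were 131 positive and 17 negative (DESeq2) and 7 positive and 0 negative (limma-voom, with 848 genes at an unadjusted p under 0.05).

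**Figure D1:**
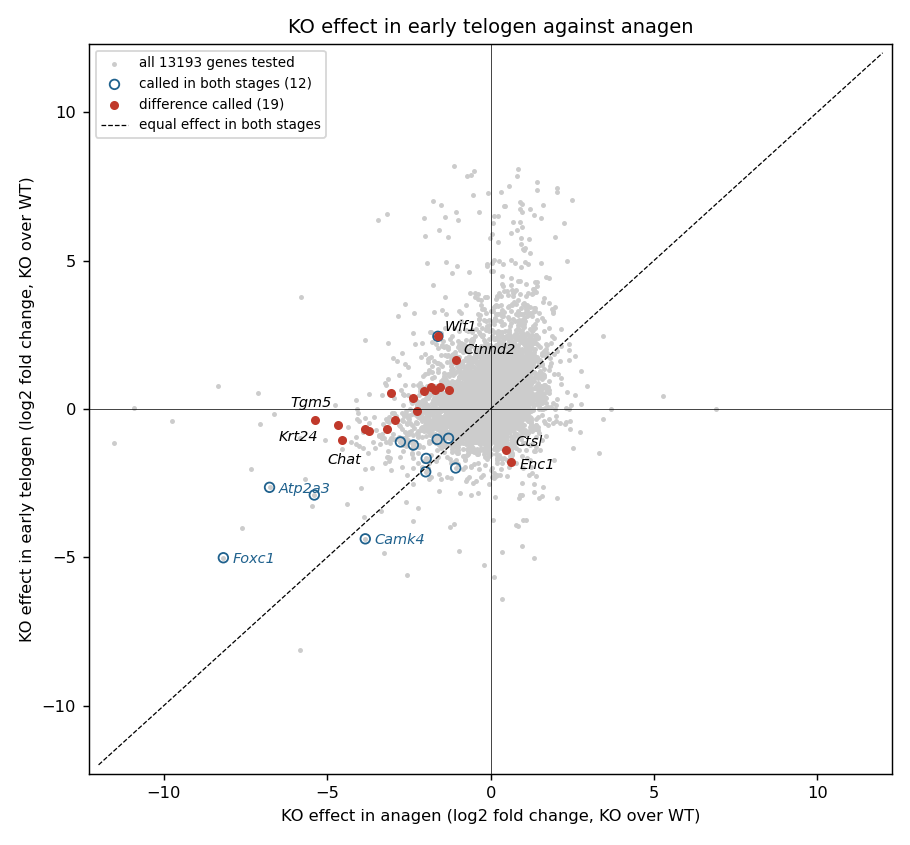
KO effect in early telogen (vertical axis) against the KO effect in anagen (horizontal axis), both as log2 fold change of KO over WT, for the 13193 genes tested (grey). Filled red points are the 19 genes whose difference was called, open blue circles the 12 genes called in both stages, and the dashed line marks equal effects; 17 red points lie left of the vertical zero line and above the dashed line.

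Across genes the 2 effects were weakly related. Pearson's r between the anagen and the early telogen effect was 0.236 and Spearman's rho 0.272 over 13193 genes, which are not independent replicates, and 59.7% of genes had the same sign in both stages. The standard deviation of the effects over genes was 0.73 in anagen and 0.90 in early telogen. At the top of the plot of both effects, 55 of the 59 genes with an early telogen effect above 5 had no read in any early telogen WT library. Their fitted values depend on the prior count and are not read as sizes. None of the 19 called genes was at 0 throughout a group.

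Wif1 (chromosome 10, 121033960 to 121100650), which encodes a secreted protein that binds and inhibits WNT ligands, was the one gene called in opposite directions in the 2 stages. It was at 4.43 and 5.49 CPM in anagen KO and at 11.6, 22.7 and 11.2 CPM in anagen WT. In early telogen it was at 142, 169, 149 and 217 CPM in KO and at 24.2, 24.6 and 44.6 CPM in WT. Both anagen KO libraries lay below every WT library of that stage, and all 4 early telogen KO libraries lay above every WT library. The effect was -1.61 ± 0.36 in anagen (edgeR adjusted p = 0.0458) and 2.45 ± 0.31 in early telogen (edgeR adjusted p = 0.0065). The difference was 4.06 ± 0.48 (edgeR adjusted p = 0.00585). In WT the mean level was 2.05-fold higher in early telogen than in anagen, and in KO 34.1-fold higher.

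Ctnnd2 (chromosome 15, 30172593 to 31029341), encoding a delta-catenin of adherens junctions best known from neurons, also lay on opposite sides of WT in the 2 stages. Its levels were 3.23 and 2.28 CPM in anagen KO against 4.73, 6.32 and 6.15 CPM in WT. Early telogen KO libraries were at 11.8, 11.9, 13.0 and 13.0 CPM, and WT libraries at 4.48, 3.19 and 4.12 CPM. Neither stage showed any overlap between genotypes. The early telogen rise of 1.66 ± 0.29 was called (edgeR adjusted p = 0.0373), the anagen effect of -1.05 ± 0.33 was not (edgeR adjusted p = 0.201), and the difference was 2.71 ± 0.44 (edgeR adjusted p = 0.0229).

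For the genes with the largest differences, the anagen KO libraries stood apart from the other 10. Tgm5 (chromosome 2, 121046111 to 121085841) encodes a transglutaminase that crosslinks proteins of the cornified envelope. It was at 4.48 and 5.88 CPM in anagen KO and at 96.2, 302 and 241 CPM in anagen WT, a 41.1-fold lower mean. In early telogen KO it was at 207, 133, 294 and 201 CPM and in WT at 248, 261 and 304 CPM, which overlapped. The difference of 4.99 ± 0.58 was the largest of the 19 (edgeR adjusted p = 0.00585). Gm14213, a gene on the opposite strand, overlaps Tgm5, and whether the counting used strand is not given in the sources used here.

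Krt24 (chromosome 11, 99279959 to 99285262), a type I keratin gene, was at 14.1 and 14.9 CPM in anagen KO against 169, 689.7 and 256 CPM in anagen WT. In early telogen it was at 225, 354, 282 and 332 CPM in KO and 391, 444 and 457 CPM in WT. KO libraries were below WT libraries in both stages, but the ratio of means shrank from 25.6-fold to 1.44-fold, and the early telogen effect of -0.53 ± 0.36 was not called. The difference was 4.15 ± 0.62 (edgeR adjusted p = 0.0229).

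Chat (chromosome 14, 32408203 to 32465989), the choline acetyltransferase gene, was at 0.895 and 0.694 CPM in anagen KO and at 8.14, 26.3 and 22.4 CPM in anagen WT. Early telogen KO libraries were at 36.3, 29.5, 33.7 and 40.8 CPM and WT libraries at 64.5, 93.6 and 58.9 CPM. Levels in KO thus lay below WT in both stages without overlap, 23.8-fold in anagen and 2.06-fold in early telogen by their means. The difference was 3.50 ± 0.55 (edgeR adjusted p = 0.0229).

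Col6a1 (chromosome 10, 76708792 to 76726168), a chain of collagen VI, was at 15.1 and 9.85 CPM in anagen KO and at 122, 263 and 158 CPM in anagen WT. In early telogen it was at 188, 139, 286 and 244 CPM in KO and at 426, 303 and 306 CPM in WT. KO was 14.5-fold lower in anagen and 1.61-fold lower in early telogen, with a difference of 3.17 ± 0.48 (edgeR adjusted p = 0.0229). Collagen VI is also made by fibroblasts. The summed level of 22 fibroblast and dermal papilla markers was 1420.1 to 1787 CPM in anagen KO and 1210.2 to 2603 CPM in anagen WT, ranges that overlap. In early telogen the sum was 1468 to 5339.8 CPM in KO and 1193 to 2811 CPM in WT. The part of these cells in the Col6a1 difference was not tested.

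Ccdc88c (chromosome 12, 100911523 to 101029056) encodes a protein that binds Dishevelled in WNT signalling. It was at 2.41 and 1.59 CPM in anagen KO and at 20.5, 36.7 and 22.7 CPM in WT. Early telogen KO libraries were at 30.9, 46.1, 67.7 and 33.2 CPM and WT libraries at 72.3, 75.2 and 75.8 CPM, so that KO was lower in both stages and the gap was wider in anagen. Its difference was 2.99 ± 0.46 (edgeR adjusted p = 0.0229). Genes annotated on the opposite strand overlap Ccdc88c, Chat, Ctnnd2 and Ctsl too.

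**Figure D2:**
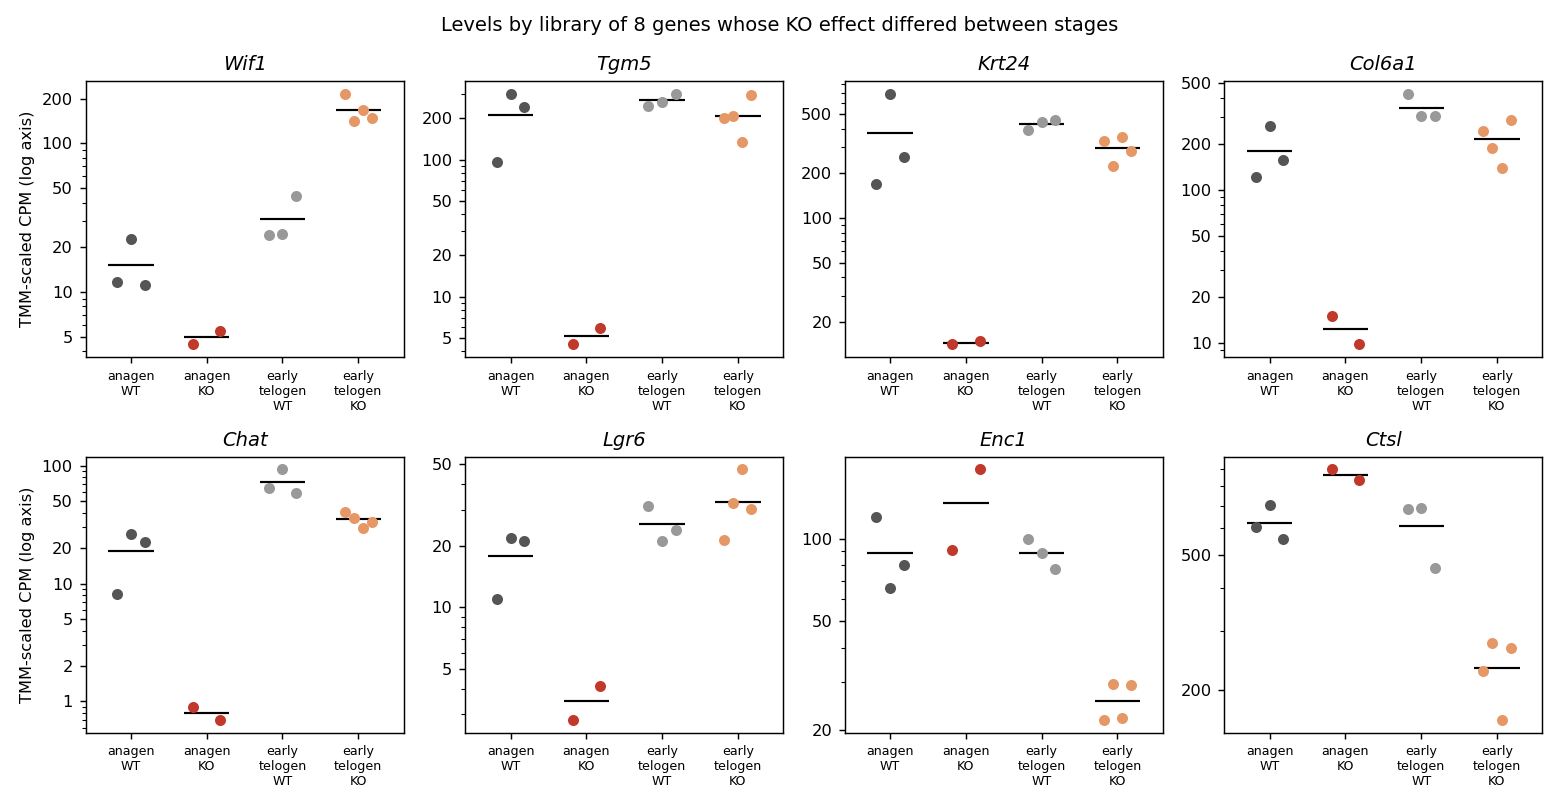
Level of 8 genes whose KO effect differed between stages, in TMM-scaled CPM on log axes, 1 point per library, with a line at each group mean (anagen WT n = 3, anagen KO n = 2, early telogen WT n = 3, early telogen KO n = 4). For Tgm5, Krt24, Col6a1, Chat and Lgr6 the 2 anagen KO libraries are the lowest of all 12, for Wif1 the 4 early telogen KO libraries are the highest, and for Enc1 and Ctsl they are the lowest.

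The upstream sequences of Wif1, Tgm5 and Col6a1 show what lies before the starts of the 2 genes of smallest p and of the one called gene found with GTAAACA. They are RefSeq sequences of GRCm38.p6, the build the submitters name as mm10, on the strand of the gene, and end where either RefSeq or GENCODE M21 places the gene's start. Capitals mark GTAAACA, a form of the core motif of forkhead factors. Other forms were not searched, so a sequence without capitals may still hold a forkhead motif.
Wif1, chr10:121033754-121033959, plus strand: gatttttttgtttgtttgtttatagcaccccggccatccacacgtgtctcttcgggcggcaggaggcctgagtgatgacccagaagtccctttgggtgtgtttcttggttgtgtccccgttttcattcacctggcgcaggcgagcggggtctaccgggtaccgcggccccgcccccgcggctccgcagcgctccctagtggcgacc
Tgm5, chr2:121085842-121086091, minus strand: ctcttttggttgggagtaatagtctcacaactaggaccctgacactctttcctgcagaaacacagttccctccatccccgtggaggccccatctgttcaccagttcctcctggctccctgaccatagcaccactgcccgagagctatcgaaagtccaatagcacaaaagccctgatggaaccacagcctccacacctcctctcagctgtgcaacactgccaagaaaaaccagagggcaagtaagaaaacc
Col6a1, chr10:76726169-76726294, minus strand: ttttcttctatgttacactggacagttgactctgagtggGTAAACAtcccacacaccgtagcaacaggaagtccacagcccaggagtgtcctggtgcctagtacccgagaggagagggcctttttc
Of the 19 called genes, 14 had a RefSeq promoter entry, and in the 250 bases before the RefSeq start 1 of the 14, Col6a1, held GTAAACA on either strand. The same search found it for 956 of 27025 gene symbols (3.54%) and for 245 of the 9584 tested genes with an entry (2.56%). A match is a description of the letters and not a binding site.

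Early telogen means of KO lay above those of WT for Serpinb11 and Lgr6, but their libraries overlapped. Serpinb11 (chromosome 1, 107361198 to 107380475), encoding a serpin of clade B, was at 7.48 and 9.49 CPM in anagen KO and at 31.9 to 98.4 CPM in anagen WT. It was at 82.3 to 159.8 CPM in early telogen KO and at 71.1 to 103 CPM in WT, with a difference of 3.57 ± 0.54 (edgeR adjusted p = 0.0229). Lgr6 (chromosome 1, 134983301 to 135105276), an R-spondin receptor gene that marks stem cells of the upper follicle, was at 2.81 and 4.13 CPM in anagen KO. Anagen WT libraries were at 11.03, 21.7 and 21.0 CPM, while early telogen KO (21.4 to 47.4 CPM) and WT (21.1 to 31.2 CPM) overlapped. Its difference was 2.75 ± 0.48 (edgeR adjusted p = 0.0406).

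Moxd1 (chromosome 10, 24223517 to 24302790), a monooxygenase gene related to dopamine beta-hydroxylase, changed order between stages. It was at 82.4 and 79.1 CPM in anagen KO and 206 to 472 CPM in anagen WT, but at 291 to 420.3 CPM in early telogen KO and 219.7 to 240.4 CPM in WT. The difference was 2.65 ± 0.38 (edgeR adjusted p = 0.0163), and the early telogen effect alone, 0.60 ± 0.24, was not called. The same crossing of means without an early telogen call was seen for Mfap3l (2.55 ± 0.45), Nrip3 (2.29 ± 0.37) and Pros1 (1.93 ± 0.34), which encodes protein S, a ligand of TAM receptors. Early telogen KO libraries lay above all WT libraries for each of these 3, for example at 51.3 to 67.8 CPM against 35.5 to 40.1 CPM for Pros1. The 3 were chosen by a difference that holds these same values, and the share of all genes with such a separation was not counted. The separation is thus a description and no test.

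Vwa2 (chromosome 19, 56874249 to 56912078), encoding a basement membrane protein, was at 14.5 and 16.5 CPM in anagen KO against 80.6, 129 and 147 CPM in anagen WT. In early telogen it was at 164 to 264 CPM in KO and 267 to 278 CPM in WT, and its difference was 2.55 ± 0.34 (edgeR adjusted p = 0.0095). Sms (chromosome X, 157443855 to 157492287), the spermine synthase gene, went from 4.79-fold lower to an early telogen effect of -0.063 ± 0.24, with a difference of 2.19 ± 0.39 (edgeR adjusted p = 0.0428). Just inside the threshold lay Mfap3l (edgeR adjusted p = 0.0438) and just outside it Mme (4.22 ± 0.80, edgeR adjusted p = 0.0728), which encodes the membrane peptidase neprilysin.

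Read by genotype instead of by stage, the same contrast asks how far each genotype changed from anagen to early telogen. For all 19 genes the change in KO was larger in size than the change in WT. The genes were chosen by the difference of these 2 changes, so this describes them and is no test. Over the 17 genes with a positive difference the median change from anagen to early telogen was 0.53 in WT (range -0.55 to 1.94) and 3.75 in KO. The mean level of Chat was 3.82-fold higher in early telogen than in anagen in WT and 44.2-fold higher in KO, and that of Tgm5 1.27-fold higher in WT and 40.4-fold higher in KO. Since the stages come from separate tables, the change within a genotype also holds any shift between the tables, and a shift common to both genotypes cancels in the difference of KO effects.

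**Figure D3:**
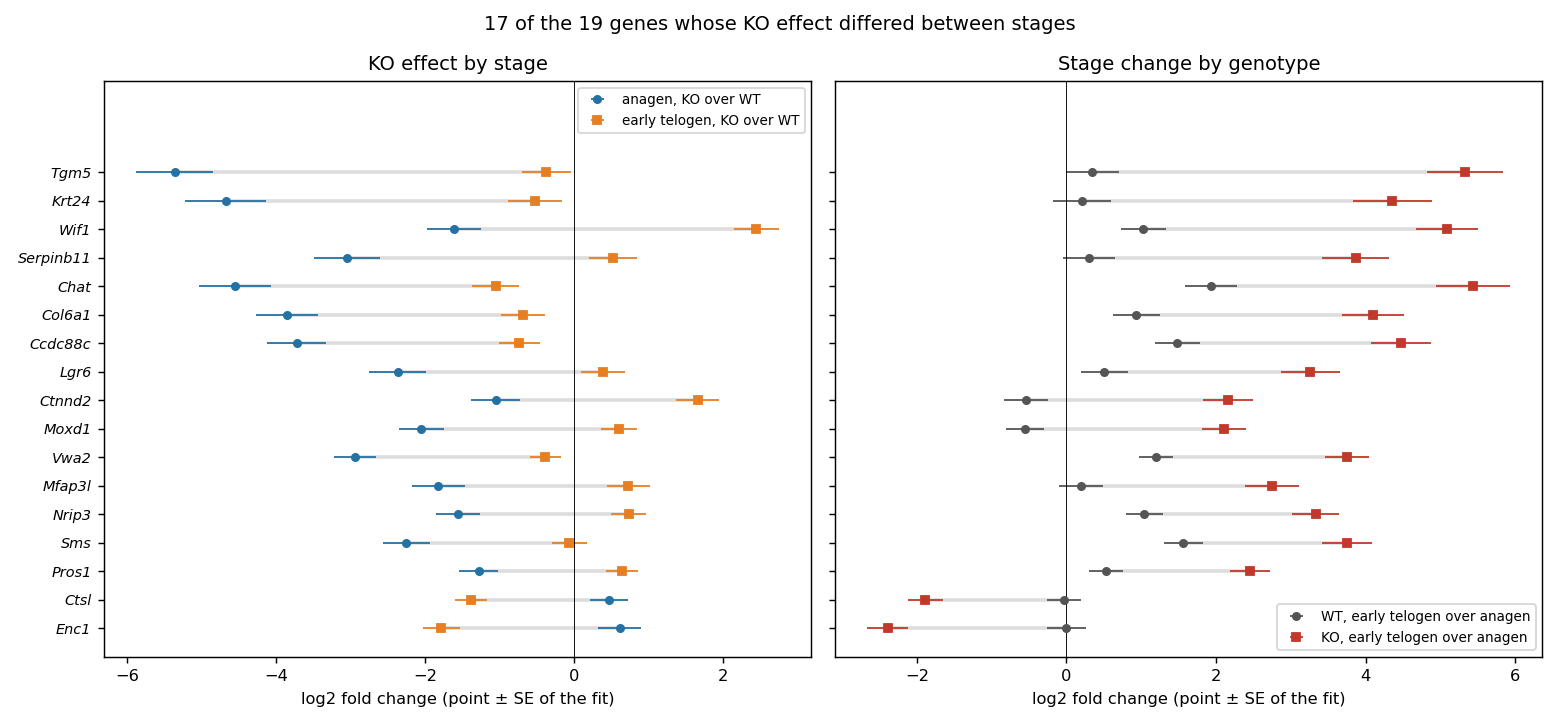
The 17 of the 19 called genes described here, ordered by the size of the difference. Left, KO effect in anagen (circles) and in early telogen (squares) as log2 fold change with standard errors; right, change from anagen to early telogen in WT (circles) and in KO (squares). On the right the 15 upper genes have KO squares at 2.10 or above, while their WT circles lie between -0.55 and 1.94.

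In the opposite direction, Enc1 and Ctsl were lower in early telogen KO and not in anagen KO. Enc1 (chromosome 13, 97241105 to 97253034), encoding an actin-binding protein of the Kelch family, was at 91.2 and 179 CPM in anagen KO and 119, 66.2 and 80.0 CPM in anagen WT. In early telogen it was at 29.5, 22.2, 29.1 and 21.7 CPM in KO and 99.5, 88.5 and 77.8 CPM in WT. WT means were the same in both stages, 88.6 CPM each, and the KO libraries fell below WT only in early telogen. For Enc1 the difference was -2.39 ± 0.38 (edgeR adjusted p = 0.0229).

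Ctsl (chromosome 13, 64359337 to 64370890), the gene of the lysosomal protease cathepsin L, was at 896 and 830.2 CPM in anagen KO and 605, 701 and 559.6 CPM in anagen WT. It was at 276, 164, 267 and 228 CPM in early telogen KO and 683, 689 and 459 CPM in WT. KO lay above WT in anagen and below it in early telogen, and only the early telogen fall (-1.39 ± 0.21, edgeR adjusted p = 0.0194) was called. The difference was -1.86 ± 0.33 (edgeR adjusted p = 0.0428). Next in line by p, and not called, were Mbd1 (-1.43 ± 0.28), Bcar3 (-1.68 ± 0.33) and Sardh (-1.76 ± 0.37), with edgeR adjusted p from 0.0748 to 0.0949. Mbd1 encodes a methyl-CpG binding protein and Sardh a mitochondrial enzyme of glycine metabolism.

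Within the same fit, KO effects in single stages were called for 154 genes in anagen (1.17%), of which 147 were lower (1.11%) and 7 higher (0.0531%). In early telogen 39 were called (0.296%), 27 lower (0.205%) and 12 higher (0.091%). Of the 147 genes lower in anagen KO, 125 were also below WT in early telogen, 11 by a called change, and 16 had a called difference between stages. Over all genes tested 59.7% had the same sign in both stages, 0.205% were called lower in early telogen and 0.144% had a called difference. The median effect of the 147 was -2.10 in anagen and -0.56 in early telogen. Since the 147 were chosen by their anagen effect, which enters the difference, the 16 calls and the smaller early telogen median are a description and no test. A call in 1 stage and none in the other is not by itself a difference between stages.

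Of the genes tested, 12 were called in both stages, and for 11 of these the difference was not called. These 11, all lower in KO in both stages, include Foxc1 itself. Camk4, a calcium/calmodulin-dependent kinase gene, was lower by nearly the same amount in both stages (-3.84 in anagen, -4.38 in early telogen), as was Fmn1 (-1.99 and -2.12), which encodes the actin nucleator formin 1. Atp2a3, a calcium pump gene of the endoplasmic reticulum, was at 0.0994 and 0.562 CPM in anagen KO and 22.0 to 47.8 CPM in anagen WT. It was at 2.10 to 2.84 CPM in early telogen KO and 8.78 to 26.6 CPM in WT. Its difference of 4.12 ± 0.84 missed the threshold (edgeR adjusted p = 0.0935), as did that of the potassium channel gene Kcnma1 (2.49 ± 0.99, edgeR adjusted p = 0.633). A p above the threshold does not show that the effects were equal.

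Signalling pathways were described by lists of their genes, each set beside the median of 0.041 and the 53.7% positive over all genes. With 0.144% of all genes called, a list without a call is no result about its members, here and below. Genes of a list are not independent replicates, so counts of positive members are a description and no test. Of 21 BMP ligands and antagonists none was called, 15 were positive, and the median difference was 0.56. The BMP antagonist gene Nog was at 1.57 and 0.892 CPM in anagen KO, 6.80 to 18.8 CPM in anagen WT, 32.6 to 51.1 CPM in early telogen KO and 45.6 to 81.3 CPM in early telogen WT. Its difference of 2.80 ± 0.55 was not called (edgeR adjusted p = 0.0748). Bmp2, a ligand gene, was at 8.65 and 11.4 CPM against 42.5 to 52.6 CPM in anagen and at 90.0 to 284 CPM against 283 to 344 CPM in early telogen (difference 1.47 ± 0.46, edgeR adjusted p = 0.399). The value for Bmp6 was -0.61 ± 0.74. Among 19 BMP receptors, SMAD and Id genes none was called, 6 were positive and the median was -0.19, with Smad9, a BMP-responsive SMAD gene, at 2.98 ± 0.65 (edgeR adjusted p = 0.112).

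Wif1 was the 1 gene called among 8 WNT antagonists tested, of which 6 were positive (median 0.22). None of 29 WNT ligands, receptors and targets was called, with 20 positive and a median of 0.62. Axin2, a feedback target of WNT signalling, was at 3.06 and 3.64 CPM in anagen KO and 6.35 to 8.68 CPM in anagen WT. In early telogen it was at 22.8, 49.5, 15.4 and 17.5 CPM in KO (replicates 1, 2, 3 and 5) and at 14.1 to 14.5 CPM in WT. Its mean in KO thus lay below WT in anagen and above it in early telogen, with a difference of 2.04 ± 0.54 that was not called (edgeR adjusted p = 0.259). None was called among 22 FGF signalling genes (11 positive), 14 hedgehog pathway genes (9 positive), 16 NOTCH pathway genes (4 positive), 20 TGF-beta genes (9 positive) or 23 EGF receptor and MAPK feedback genes (8 positive). The medians of these 5 lists were -0.018, 0.22, -0.21, -0.074 and -0.43, with -0.086 for FGF signalling and 0.080 for the hedgehog pathway when genes at 0 throughout a group were set at a floor of 3 counts over the group. Fgf18, a ligand that holds stem cells in telogen, had a difference of 2.27 ± 0.84 (edgeR adjusted p = 0.548) and the hedgehog target Gli1 one of 1.26 ± 0.36 (edgeR adjusted p = 0.327).

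None of the bulge stem cell markers tested had a called difference. Over all genes tested 0.144% had one, so this is no result about these markers. Of 30 such genes 14 were positive and the median was -0.011. In anagen KO 3 of the 30 were called lower (1.11% of all genes), and in early telogen KO 0 (0.205%). Cd34, a gene of the sorting gate, was lower in KO to nearly the same degree in both stages, at 268 and 221 CPM against 355 to 792 CPM in anagen and 302 to 423 CPM against 676 to 1002 CPM in early telogen. Its effects were -1.22 ± 0.31 in anagen and -1.22 ± 0.25 in early telogen, neither called, and their difference was -0.0056 ± 0.39 (edgeR adjusted p = 1). Krt15, a bulge keratin gene, was at 1212 and 2103 CPM in anagen KO and 4688 to 9718 CPM in anagen WT, whereas early telogen KO (6038 to 10802 CPM) and WT (8694 to 10969 CPM) overlapped. The difference for Krt15 was 1.86 ± 0.46 (edgeR adjusted p = 0.200). Values for the stem cell transcription factor genes were 1.13 ± 0.36 for Nfatc1, -1.01 ± 0.47 for Sox9, 0.29 ± 0.39 for Lhx2, -0.25 ± 0.37 for Tcf7l1 and 0.36 ± 0.32 for Foxp1, with none called. Lgr5 was at -0.085 ± 0.48. Of 18 forkhead genes tested, Foxc1 included, 13 were positive and none was called, with a median of 0.26.

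Mitosis genes had a median KO effect above 0 in both stages. Of 36 such genes 33 had a positive difference and none was called. Their median effect was 1.10 in anagen and 2.14 in early telogen, and the median difference 1.04. The standard error of the list's mean difference in log2 CPM, from the spread between libraries, was 1.14, larger than that median. Mki67, a marker of cycling cells, was at 151 and 31.7 CPM in anagen KO and 82.2, 27.3 and 12.7 CPM in anagen WT. In early telogen it was at 44.1, 41.1, 51.9 and 50.7 CPM in KO and 8.95, 6.71 and 9.32 CPM in WT. The anagen groups overlapped and the early telogen groups did not, and the difference of 1.33 ± 0.94 was not called (edgeR adjusted p = 0.921). None of 37 DNA replication genes (23 positive, median 0.10), 16 G1 cyclins, CDKs and E2F factors (11 positive, median 0.26), 11 CDK inhibitors and pocket proteins (4 positive, median -0.25) or 14 p53 targets (6 positive, median -0.15) was called. Ccnd1 was at -0.097 ± 0.52 and Cdkn1a at -0.33 ± 0.35.

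Lists of other follicle and epidermal layers differed in their share of positive differences, which was 53.7% over all genes. Of 13 sebaceous gland genes 6 were positive (median -0.00086) and of 14 hair germ genes 9 (median 0.46), and none was called in either list. Tgm5 and Krt24 were the 2 called among 11 genes of the companion layer and inner bulge, of which 8 were positive, with a median difference of 0.27. Lgr6 was the 1 called among 13 genes of the isthmus, infundibulum and epidermis, of which 12 were positive (median 1.54). Of 30 epidermal differentiation genes 26 were positive and none was called (median 1.14). The summed level of these 30 genes was 1394 and 2235 CPM in anagen KO and 3109 to 4686 CPM in anagen WT, without overlap, and 3607 to 7869 CPM in early telogen KO and 3088 to 7222 CPM in WT, with overlap. That sum moved with Tgm5, Krt24 and Lgr6 in the anagen KO libraries, and its part in their differences was not tested. Among 27 genes of hair matrix, inner root sheath and hair shaft 23 were positive and none was called. The median was 1.61 as fitted and 0.82 with the 10 genes at 0 throughout a group set at the same floor of 3 counts. For example, Krt73, an inner root sheath keratin gene, had no read in early telogen WT and 1, 55, 6 and 3 reads in early telogen KO.

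Markers of cells that the sort should exclude were also compared. All 11 melanocyte markers tested had a positive difference, with a median of 2.36, and none was called. Tyr, the tyrosinase gene, had 22, 14, 13 and 1 reads in early telogen KO and 1, 0 and 0 reads in WT, with 97 and 70 reads in anagen KO and 244, 206 and 103 in anagen WT (edgeR adjusted p of the difference 0.0748). Dct was at 12.6 and 15.1 CPM in anagen KO, 11.5 to 67.8 CPM in anagen WT, 7.07 to 17.0 CPM in early telogen KO and 1.43 to 2.75 CPM in early telogen WT. The summed melanocyte level was 28.8 and 34.8 CPM in anagen KO and 63.3 to 158 CPM in anagen WT, and 75.2 to 108 CPM in early telogen KO and 91.6 to 162 CPM in WT. In early telogen the sum had a lower median in KO (86.1 CPM) than in WT (135 CPM), while the median effect of the list was 2.13, or 1.55 with genes at 0 set at the floor. Mlana and Slc45a2 were at 0 in every early telogen WT library.

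Col6a1 was the 1 called among 22 fibroblast and dermal papilla markers (17 positive, median 0.57). None was called among 13 endothelial (12 positive, median 1.01), 20 immune (12 positive, median 0.22), 3 muscle and 7 Schwann cell and adipocyte markers (7 positive, median 1.38). Early telogen KO replicate 2 and WT replicate 3 stood apart in several of these sums. Replicate 2 of KO had the highest fibroblast sum (5339.8 CPM) and epidermal differentiation sum (7869 CPM), and replicate 3 of WT had the lowest fibroblast (1193 CPM) and endothelial (14.6 CPM) sums of the 12. Anagen WT replicate 2 was close to it in the fibroblast sum (1210.2 CPM). Early telogen WT replicate 1 was the highest of its group in the fibroblast (2811 CPM), epidermal differentiation (7222 CPM) and immune (205 CPM) sums. Ly6a, which encodes Sca-1 and was gated out, was at 47.4 CPM in early telogen KO replicate 2 and at 2.53 to 9.23 CPM in the other 11 libraries.

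**Figure D4:**
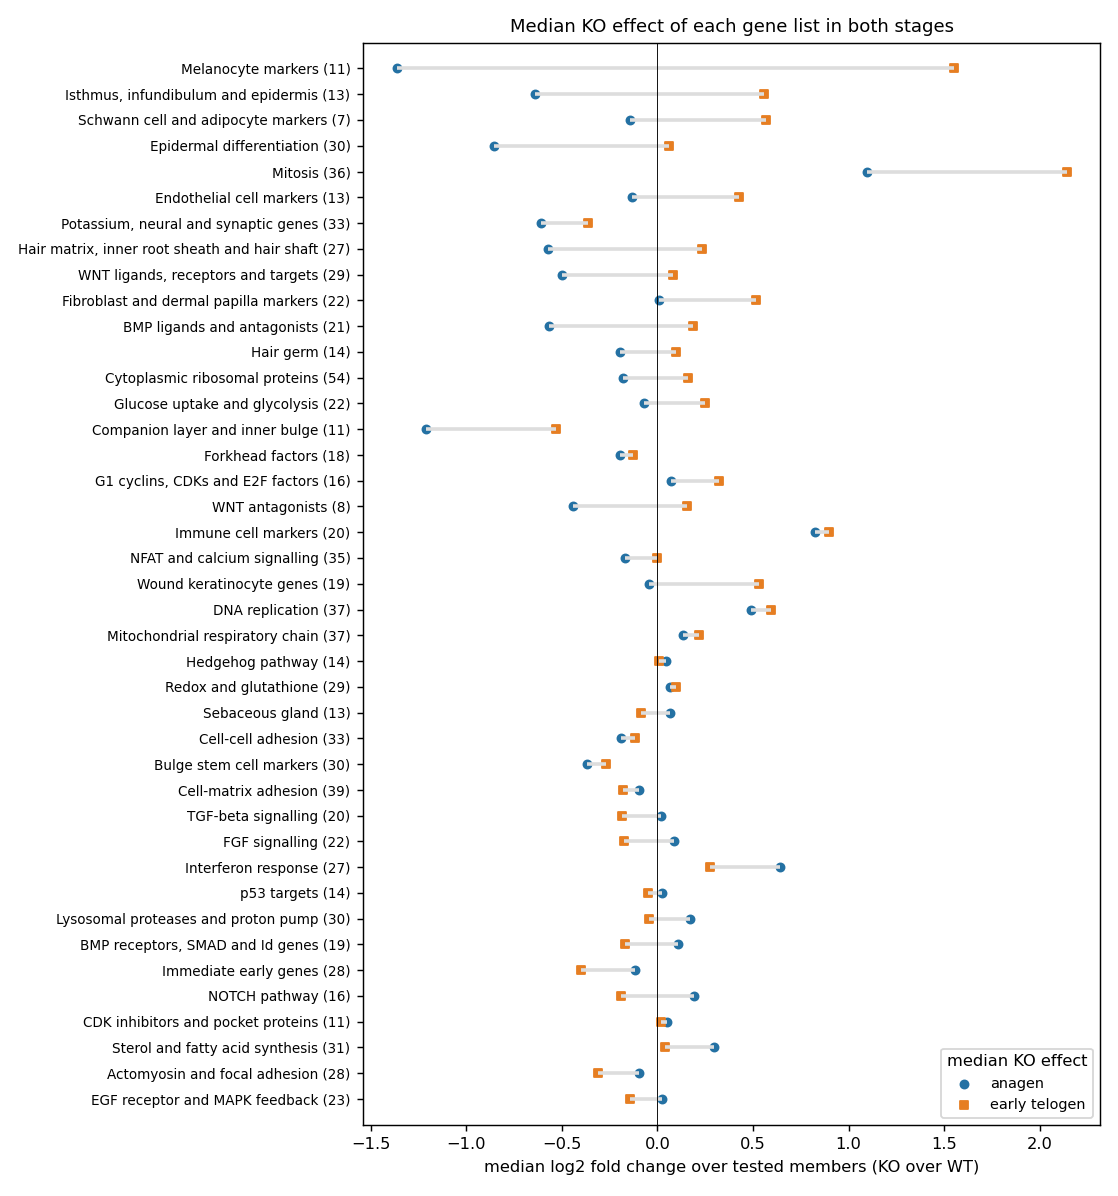
Median KO effect over the tested members of each gene list (number in brackets) in anagen (circles) and early telogen (squares), as log2 fold change of KO over WT, with genes at 0 throughout a group set at a floor of 3 counts over the group. Lists are ordered by their median difference and those with under 5 tested genes are left out; mitosis genes lie above 0 in both stages (1.10 and 2.14), and melanocyte markers have the widest gap.

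Chat was the 1 gene called among 33 potassium channel, neural and synaptic genes (21 positive, median 0.86), a list that holds genes picked from earlier results of these libraries. Among 35 NFAT and calcium signalling genes none was called (22 positive, median 0.22), with Cacna1c, a voltage-gated calcium channel gene, at 1.72 ± 0.51 (edgeR adjusted p = 0.377). Ctsl was the 1 called among 30 genes of lysosomal proteases and the proton pump (9 positive, median -0.16). All 54 cytoplasmic ribosomal protein genes were positive, with a median of 0.34, and none was called. These 54 are not independent replicates, and the standard error of their mean difference in log2 CPM, from the spread between libraries, was 0.22. No call was made among 37 mitochondrial respiratory chain genes (27 positive, median 0.10), 22 genes of glucose uptake and glycolysis (14 positive, median 0.34), 31 of sterol and fatty acid synthesis (10 positive, median -0.26) or 29 of redox and glutathione metabolism (18 positive, median 0.058).

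Medians of the adhesion and stress lists lay below the 0.041 of all genes tested, except that of the wound keratinocyte genes. Medians were -0.0019 for 33 cell-cell adhesion genes (16 positive), -0.074 for 39 cell-matrix adhesion genes (17 positive) and -0.32 for 28 actomyosin and focal adhesion genes (6 positive), and none was called. Cdh13, a cadherin gene, was at 7.83 and 11.5 CPM in anagen KO and 22.2 to 61.7 CPM in anagen WT, and at 159 to 216 CPM in early telogen KO and 216 to 234 CPM in WT (difference 1.97 ± 0.43, edgeR adjusted p = 0.112). Cdh1, the E-cadherin gene, was at 0.099 ± 0.41. None was called among 27 interferon response genes (11 positive, median -0.091), 28 immediate early genes (7 positive, median -0.20) and 19 wound keratinocyte genes (11 positive, median 0.18). Irf7, an interferon regulatory factor gene, was at 35.8 and 47.8 CPM in anagen KO against 11.8 to 22.7 CPM in WT and at 6.35 to 7.22 CPM against 7.92 to 10.8 CPM in early telogen (difference -1.69 ± 0.37, edgeR adjusted p = 0.108).

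The number of called genes moved with nearly every library left out. It was 51 positive and 4 negative without anagen WT replicate 1, and 13 positive and 0 negative without either of the other anagen WT libraries. Leaving out an early telogen KO library gave 7, 13, 24 and 8 positive genes (replicates 5, 1, 2 and 3), and leaving out an early telogen WT library gave 6, 2 and 3 (replicates 1, 3 and 4). The 2 called without early telogen WT replicate 3 were Wif1 and Tgm5. Without both libraries whose title and age disagree, 6 positive genes were called, and only 4 of the 17 positive calls remained. Both anagen KO libraries were female and 2 of 3 anagen WT libraries male, and with labelled sex as a term 6 positive genes were called. Moxd1, Serpinb11, Tgm5, Vwa2 and Wif1 were among them, and all 6 are among the 19.

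**Figure D5:**
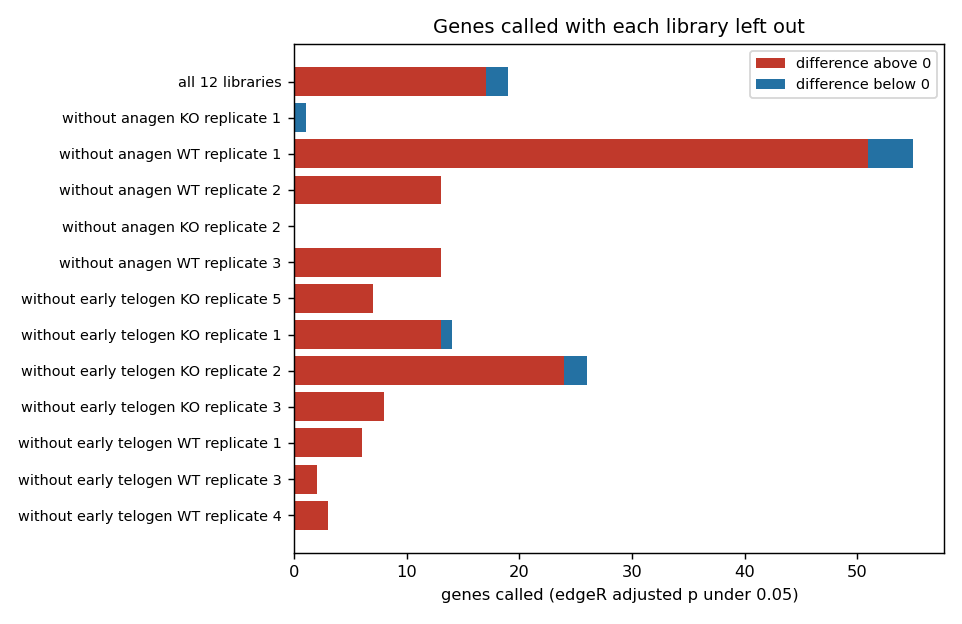
Number of genes called (horizontal axis, edgeR adjusted p under 0.05) with all 12 libraries and with each library left out, split by a difference above 0 (red) and below 0 (blue). The count falls from 19 to 0 or 1 when either anagen KO library is left out and rises to 55 without anagen WT replicate 1.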

How the data were processed

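Poly(A) RNA libraries were made with a directional kit, per the labels' protocols. Reads were aligned with TopHat2 to mm10 and counted per gene with HTSeq, per the submitters' processing notes; versions, annotation and strand setting are not given in the sources used here. The authors deposited raw counts per gene in 1 table per stage. Tally lines that name no gene were left out of library sizes (reads at more than 1 position were 20.1% to 32.8% of counts and tallies in anagen; the early telogen table has no such lines), as were 3 broken lines and 27 names turned into dates in the early telogen table, and the 872 anagen names not shared.

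All 12 libraries were fitted together with edgeR 4.0.16 (R 4.3.3) as 4 group means after filterByExpr (minimum count 10, minimum total 15), TMM scaling and a robust quasi-likelihood fit. The contrast was the KO effect in early telogen minus that in anagen. The script was checked on simulated counts. Alternatives used DESeq2 1.42.0, limma 3.58.1 (voom), other filters, a sex term, replicate blocks and left-out libraries. Titles give 2 anagen KO libraries the day of a WT library (the age label of 1 of these WT libraries differs). Deviations from group means within these pairs correlated at 0.44 and 0.38. With 2 KO libraries, 1 KO deviation is minus the other, so these are not 2 separate signs of pairing. Unpaired libraries were not compared. Results of a block by day are given beside the calls. Replicates were checked for copies, and none was found.

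The comparison and the 43 gene lists were chosen with earlier results of these data known. Genes named are, per direction, the 15 called genes of largest difference at 5 CPM or more in a group (filled to 5 by p where fewer were called), per list up to 4 called members or otherwise the 2 of smallest p, and a fixed set of 20 stem cell and cell cycle genes; Xist, Y-linked and provisional names were left out. Single values of 2 called genes are not reported here. Mme, Kcnma1, Camk4, Fmn1 and marker genes named beside a sum were picked after their values were seen. Gene positions are from GENCODE M21 (GRCm38).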

Additional observations from a re-analysis of the deposited data

Results flagged for a closer look

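The KO effect differed between stages by the test for 19 genes, of which 17 are described here. Their log2 differences were 4.99 for Tgm5, 4.15 for Krt24, 4.06 for Wif1, 3.57 for Serpinb11, 3.50 for Chat, 3.17 for Col6a1, 2.99 for Ccdc88c, 2.75 for Lgr6, 2.71 for Ctnnd2, 2.65 for Moxd1, 2.55 for Vwa2, 2.55 for Mfap3l, 2.29 for Nrip3, 2.19 for Sms, 1.93 for Pros1, -1.86 for Ctsl and -2.39 for Enc1.

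Among 107 named genes, 1 of the 4 early telogen KO libraries lay far from the other 3 for 6 genes (5.61%). Chance flags about 1 in 20 groups. Replicate 2 was high for Ly6a (47.4 CPM, others 6.75 to 9.15), Btg2 (593 CPM, others 412 to 436), Krtdap (275 CPM, others 157 to 168) and Irf7 (7.22 CPM, others 6.35 to 6.48). Replicate 5, the library with the fewest counts, was high for Ltbp3 (217 CPM, others 184 to 185), and replicate 3 was low for Dgat2 (27.2 CPM, others 44.6 to 45.9).

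Reads at more than 1 position, a tally outside the gene counts, made up 32.8% and 31.1% of counts and tallies in the 2 anagen KO libraries and 20.1% to 25.8% in the 3 anagen WT libraries. These are the 2 libraries on which most called differences rest, and the part of this share in them was not tested.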

How the results depend on the processing

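All 19 called genes kept their sign under every alternative run for them. They were chosen for large differences in these same libraries, so this describes them and is no test. Counts of called genes (17 positive and 2 negative in the report) did not move with DESeq2's size factors, a filter at 5 CPM or library sizes from all genes, and were 18 and 2 in a fit that was not robust. They were 131 and 17 with DESeq2, 7 and 0 with limma-voom (848 genes at an unadjusted p under 0.05), 316 and 93 without a filter on low counts, and 6 and 0 with labelled sex as a term (690 genes at an unadjusted p under 0.05). Without the 2 libraries whose title day and age label differ they were 6 and 0 (798 genes at an unadjusted p under 0.05), and only 4 of the 17 positive calls remained. Without early telogen KO replicate 2 and WT replicate 3, chosen after seeing the data, they were 0 and 0 (810 genes). With each library left out in turn they ranged from 0 to 51 positive and from 0 to 4 negative. Shared numbers in the titles were tried as a replicate block: the count was 0 and 0 with the early telogen numbers (937 genes at an unadjusted p under 0.05) and 0 and 0 with the anagen days added (1072 genes). With the anagen days alone, chosen after seeing the data, it was 18 and 0. In early telogen, deviations of same-numbered libraries correlated at 0.07 and 0.03, and no source says what those numbers share. Only numbers 1 and 3 join a KO and a WT library. In a block by number, KO replicates 2 and 5 and WT replicate 4 thus add nothing to the KO effect.

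Signs were compared between alternatives only for the named genes, not for all genes tested. Among the named genes, the sign of 9 uncalled ones turned in at least 1 alternative. With the replicate block of early telogen numbers it was 0.65 for Des, 0.035 for Cd34 and 0.14 for Ccnd1. With the anagen days added to the block it was -0.043 for Ndufb5, 0.60 for Des, -0.18 for Lhx2, 0.021 for Bmp6, 0.024 for Tcf7l1 and 0.26 for Lgr5, which was at 0.21 with the anagen days alone. Cd34 was at 0.0057 without a filter, 0.025 with the filter at 5 CPM and 0.21 without early telogen KO replicate 2 and WT replicate 3, where Tcf7l1 was at 0.15. Ccnd1 was at 0.27 without the libraries whose day and age labels differ. With single libraries left out the range was -1.28 to 0.72 for Bmp6, -0.40 to 0.31 for Ccnd1, -0.32 to 0.24 for Cd34, -0.31 to 0.69 for Cdh1, -0.949 to 0.18 for Des, -0.53 to 0.39 for Lgr5 and -0.476 to 0.051 for Tcf7l1. From group means of log2 CPM, list medians were -0.25 for FGF signalling, 0.83 for hair matrix and 0.83 for Schwann cell and adipocyte markers. In these alternatives the cause was not tested. Depth was lowest in early telogen KO replicate 5 (2658749 counts), and 191 tested genes had no read throughout at least 1 group.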
